A study of Mus musculus with 45 samples.

Results

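The calcium handling genes of the heart described here were the rows of the deposited count table named Atp2a2, Pln, Sln, Ryr2, Slc8a1, Casq2, Cacna1c, Trdn, Jph2 and Camk2d. All 10 were found among 27007 genes, and all 10 had enough counts to be tested, as had 15444 genes in all. The values came from RNA sequencing of left ventricles from wild-type mice at 4, 6 and 8 weeks of age. Pups were operated on within 24 h of birth and were nursed by their mothers. The Rev-nAAC groups had a reversible constriction of the aorta, the nAAC groups had an aortic constriction, and the sham groups had the operation without constriction, with 5 libraries for each operation and age, 45 in 9 groups. The labels do not give the day on which the reversible constriction was released, nor do they state that each library came from 1 animal, so p-values measure the spread between these libraries.

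Each heartbeat is driven by a cycle of calcium. With the action potential, calcium enters through the L-type channel and opens ryanodine receptors of the sarcoplasmic reticulum, which release the much larger store that makes the filaments contract. To relax, the cell pumps calcium back into the store with SERCA2a, which phospholamban and sarcolipin restrain, and expels the rest through the sodium-calcium exchanger. In hearts under pressure overload, a lower level of the pump is a known mark of slowed relaxation.

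Totals ranged from 31586082 to 35965976 counts per library, and among the 10 genes only Sln had libraries at 0 counts. Levels are given as CPM (counts scaled to a common library size, with edgeR's TMM factors), with the SD over 5 libraries, and differences as log2 values with their standard error. The 12 ventricular cardiomyocyte markers summed to 39480 to 72740 CPM in single libraries. At 6 weeks that sum was 48350 to 58890 CPM in Rev-nAAC, 41730 to 51620 CPM in nAAC and 56140 to 59270 CPM in sham libraries, so nAAC lay below sham. At 4 weeks nAAC and sham overlapped. At 8 weeks they did so narrowly, with 43070 to 53200 CPM in Rev-nAAC, 44980 to 52810 CPM in nAAC and 52760 to 63640 CPM in sham libraries. By Xist and Y-linked genes the 15 sham libraries read as male, while 2 to 4 of the 5 libraries of each Rev-nAAC and nAAC group read as female. The library titled as replicate 1 of nAAC at 4 weeks carries sham in its treatment label and was kept with nAAC. In a bulk sample, fewer cells of a type and less RNA per cell cannot be told apart. The summed 8 fibroblast markers at 6 weeks came to 1139 to 2536 CPM in Rev-nAAC, 2753 to 4268 CPM in nAAC and 1138 to 1627 CPM in sham libraries. At 8 weeks they came to 1919 to 2451 CPM in Rev-nAAC, 2414 to 3643 CPM in nAAC and 1274 to 2001 CPM in sham libraries. At both ages nAAC lay above sham, and at 4 weeks these groups overlapped. The share of counts from mitochondrially encoded genes averaged 23.9 to 25.8% in Rev-nAAC, 21.5 to 24.6% in nAAC and 25.8 to 30.3% in sham groups. The part of these differences in the results below was not tested, save that Atp2a2 is also given per ventricular marker count.

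In nAAC ventricles most of the 10 calcium handling genes were lower than in sham ventricles at every age and none was called higher. A gene was called when its adjusted p from edgeR's quasi-likelihood test, with Benjamini-Hochberg adjustment over the 15444 genes, was under 0.05. In nAAC against sham at 4 weeks 7 of the 10 were called lower and 0 higher, where 21.2% of all genes were called lower and 19.5% higher. At 6 weeks 8 were lower and 0 higher, against 23.8% lower and 24.5% higher among all genes. At 8 weeks 8 were again lower and 0 higher, against 23.5% lower and 23.8% higher. The median log2 difference of the 10 genes was -0.35, -0.66 and -0.57 at 4, 6 and 8 weeks, where the median of all genes was -0.03, 0.02 and 0.02. The genes not called were Sln at all 3 ages, Casq2 at 4 and 6 weeks and Cacna1c at 4 and 8 weeks. At 4 weeks the count was 4 of 10 without nAAC replicate 5 or without sham replicate 5, and the calls of Slc8a1 and Jph2 were lost by DESeq2 (adjusted p = 0.0519 and 0.0521). With male libraries only, 2, 1 and 3 nAAC libraries were left against 5 sham libraries at 4, 6 and 8 weeks, and the calls lost were Slc8a1 and Jph2 at 4 weeks, Ryr2, Slc8a1, Cacna1c and Camk2d at 6 weeks and Casq2 and Trdn at 8 weeks (adjusted p = 0.0509 to 0.217). In these tests a group left with 1 library is assumed to vary like the other groups.

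In Rev-nAAC ventricles some of the genes stood higher than in nAAC at 6 and 8 weeks, and those called lower were near the share of all genes. Against nAAC at 4 weeks, 0 of 10 passed by edgeR's quasi-likelihood test and by DESeq2, 3 had an unadjusted p under 0.05, and among all genes 0.79% were called higher and 1.76% lower. At 6 weeks Atp2a2, Pln, Ryr2 and Trdn were higher in Rev-nAAC than in nAAC ventricles and Sln was lower, so that 4 genes were called higher, where 13.8% of all genes were, and 1 lower, where 12.1% were. At 8 weeks Atp2a2, Pln, Ryr2 and Cacna1c were higher, 4 genes against 16.9% of all genes, while Slc8a1 and Casq2 were lower, 2 genes against 16% of all genes. Leaving out 1 of the 10 libraries ended the 6-week calls of Sln in 5 cases and Ryr2 in 6. It ended the 8-week calls of Slc8a1 in 5 cases, Cacna1c in 2 and Ryr2 in 1, and the other calls were kept. With male libraries only (3 Rev-nAAC and 1 nAAC at 6 weeks, 1 and 3 at 8 weeks) Atp2a2 passed at both ages (adjusted p = 0.0433 and 0.038) and Slc8a1 at 8 weeks, each with 1 library in a group, whose spread was taken from the other groups. The values of Pln were then 0.54 and 0.31 and those of Ryr2 0.34 and 0.28 at 6 and 8 weeks, and that of Trdn was 0.32 at 6 weeks, and they did not pass (smallest adjusted p = 0.109).

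Set against sham, Rev-nAAC ventricles had 0 of the 10 genes called higher at any age by edgeR. At 4 weeks Atp2a2, Ryr2, Slc8a1, Casq2 and Trdn were lower, 5 of 10, with 12.2% of all genes called higher and 13.1% lower. At 6 weeks Atp2a2, Slc8a1, Casq2, Cacna1c, Jph2 and Camk2d were lower, 6 of 10, against 8.66% higher and 8.39% lower. At 8 weeks Slc8a1, Casq2, Jph2 and Camk2d were lower, 4 of 10, against 18.3% higher and 17.3% lower among all genes. Comparisons at 1 age share libraries, so their values are set side by side below and not correlated. The count at 4 weeks was 3 without Rev-nAAC replicate 2 and 8 without Rev-nAAC replicate 4, and with male libraries only the 4-week calls of Atp2a2 and Trdn and the 8-week call of Jph2 were lost (adjusted p = 0.162, 0.08 and 0.0712).

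**Figure D1:**
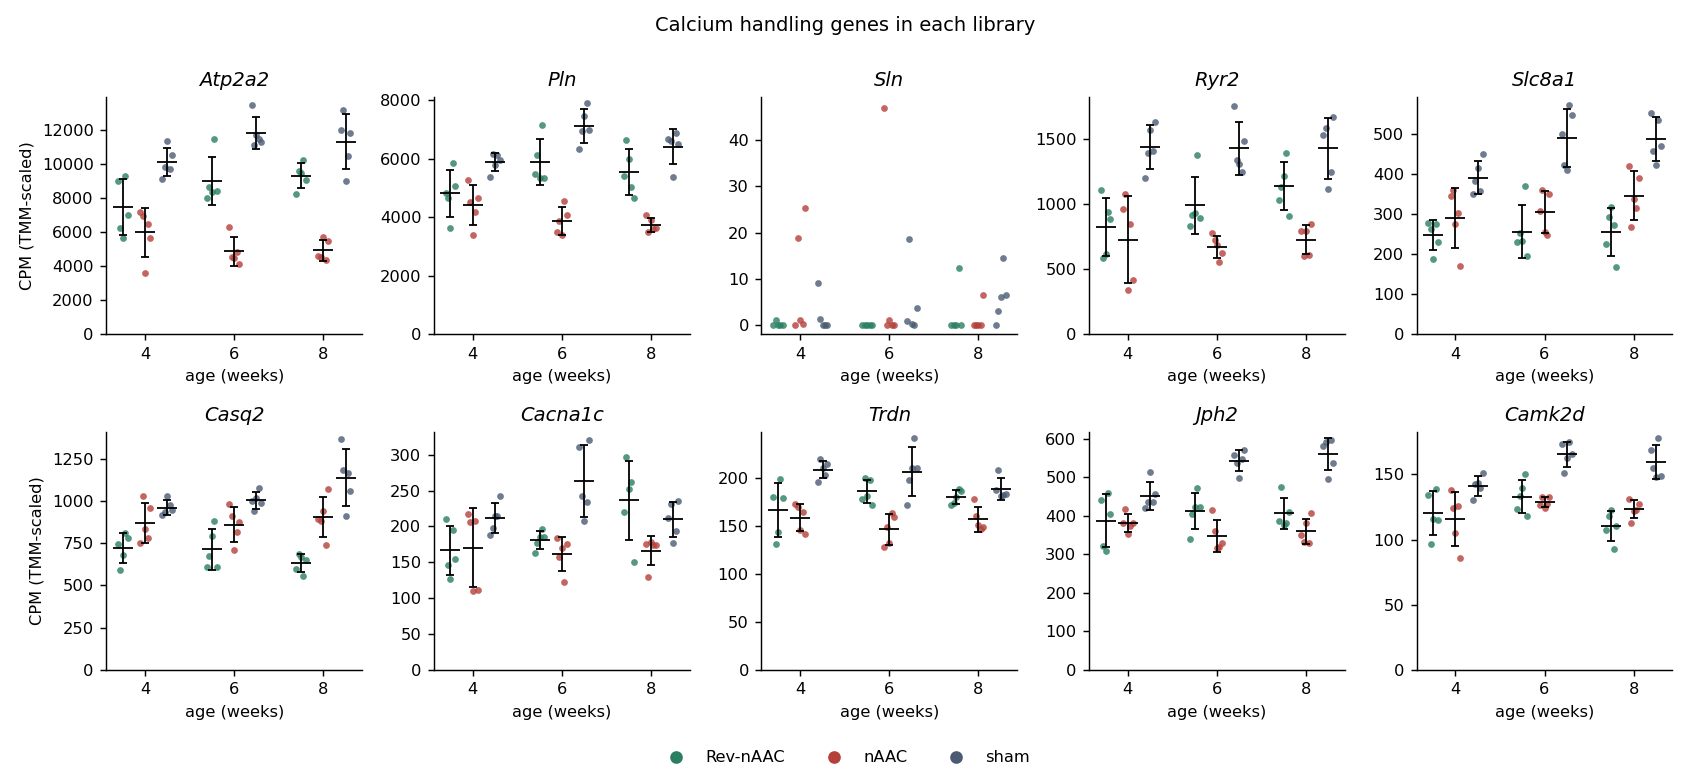
Level of each of the 10 genes in every library, in CPM (1 panel per gene), by age and operation; points are libraries, and the dash and whiskers are the mean and SD of 5, left out for Sln. At 6 and 8 weeks the mean of Atp2a2 and Pln is lowest in nAAC, while that of Slc8a1 and Casq2 is lowest in Rev-nAAC.

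**Figure D2:**
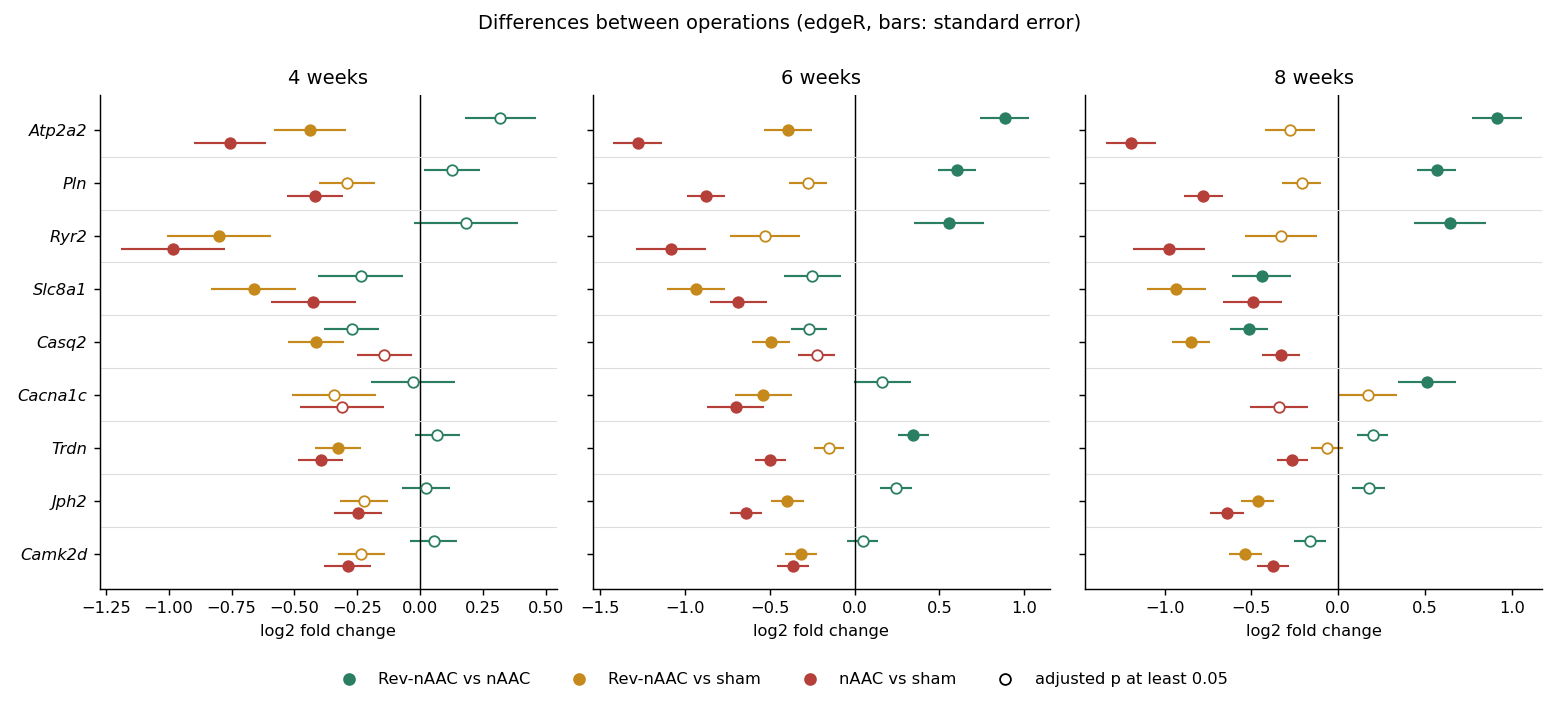
Log2 difference with its standard error for 9 genes in the 9 comparisons of operations, from edgeR; filled points passed the threshold of 0.05 on adjusted p. Sln is left out because most of its libraries held few counts.

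The 250 bases before the start are shown for Pln, which was higher in Rev-nAAC than in nAAC at 8 weeks, and for Slc8a1 and Casq2, which were lower. They come from the RefSeq annotation of GRCm38.p6, in which 7 of the 10 genes were matched, and run 5′ to 3′ along the gene's strand: chr10:53337436-53337685 on the plus strand for Pln, chr17:81738388-81738637 on the minus strand for Slc8a1 and chr3:102086165-102086414 on the plus strand for Casq2. Capitals mark GATAA, the core bound by GATA factors, in Pln and Slc8a1, and CTAAAAAT, a form of the MEF2 site, in Casq2, each on either strand.
Pln: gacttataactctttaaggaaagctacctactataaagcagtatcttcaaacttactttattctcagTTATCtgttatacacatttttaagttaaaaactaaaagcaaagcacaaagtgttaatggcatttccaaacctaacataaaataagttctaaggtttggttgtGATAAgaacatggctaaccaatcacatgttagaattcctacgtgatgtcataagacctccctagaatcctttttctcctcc
Slc8a1: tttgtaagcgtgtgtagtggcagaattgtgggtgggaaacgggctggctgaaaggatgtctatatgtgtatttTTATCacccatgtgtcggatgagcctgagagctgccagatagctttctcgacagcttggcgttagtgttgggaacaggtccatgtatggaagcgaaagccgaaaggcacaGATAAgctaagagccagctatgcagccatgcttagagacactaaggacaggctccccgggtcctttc
Casq2: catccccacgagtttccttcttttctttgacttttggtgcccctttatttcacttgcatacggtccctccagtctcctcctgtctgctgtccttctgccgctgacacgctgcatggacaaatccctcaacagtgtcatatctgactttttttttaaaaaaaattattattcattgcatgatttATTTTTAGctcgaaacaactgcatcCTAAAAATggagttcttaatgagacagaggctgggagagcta
GATAA was found in 22.6% of 32851 RefSeq promoters of this length and CTAAAAAT in 1.01%. In Pln it lay 183 (opposite strand) and 81 bases before the start, and in Slc8a1 177 (opposite strand) and 67 bases before it, so both the gene that was higher and the one that was lower in Rev-nAAC held it. Casq2 held CTAAAAAT 67 (opposite strand) and 42 bases before its start. The search took in CATTCC (12.6% of promoters), GGGCGG (32.7%) and the CArG box (1.47%) on both strands, no marked matches overlapped, and none of these 3 was in the windows shown. In the Ryr2 window none of the 5 was found. A match is a run of letters, not a site shown to be bound.

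Atp2a2 encodes SERCA2, the pump that refills the sarcoplasmic reticulum. The gene lies on the minus strand of chromosome 5, at chr5:122453513-122502225 of GRCm38. At 4 weeks its libraries held 9040, 6275, 5689, 9343 and 7043 CPM in Rev-nAAC, 7227, 6941, 3630, 6492 and 5680 CPM in nAAC and 9165, 9853, 11350, 9743 and 10560 CPM in sham ventricles. Every nAAC library was below every sham library, and nAAC replicate 3 was the lowest of the 15. At 6 weeks the values were 8022, 8682, 8396, 11480 and 8451 CPM in Rev-nAAC, 6313, 4575, 4504, 4823 and 4167 CPM in nAAC and 13490, 11110, 11720, 11520 and 11320 CPM in sham ventricles. The nAAC group lay apart below the other groups, and Rev-nAAC reached into the sham range through replicate 4 alone. At 8 weeks they were 8234, 9581, 9514, 10260 and 9100 CPM in Rev-nAAC, 4608, 4579, 5743, 4348 and 5505 CPM in nAAC and 12050, 13220, 9024, 10490 and 11840 CPM in sham ventricles. Again no nAAC library reached the lowest Rev-nAAC or sham library.

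In nAAC ventricles Atp2a2 fell to 0.591, 0.412 and 0.438 of the sham level at 4, 6 and 8 weeks. The log2 differences were -0.76 ± 0.14, -1.28 ± 0.14 and -1.19 ± 0.14, with a largest adjusted p of 4.41e-05. In Rev-nAAC it was 1.85 times the nAAC level at 6 weeks (0.89 ± 0.14, adjusted p = 1.26e-05) and 1.88 times at 8 weeks (0.91 ± 0.14, adjusted p = 5.86e-06). At 4 weeks the difference of 0.32 ± 0.14 did not pass (adjusted p = 0.221). Against sham, Rev-nAAC stood lower at 4 weeks (-0.44 ± 0.14, adjusted p = 0.0193) and at 6 weeks (-0.39 ± 0.14, adjusted p = 0.0489), and at 8 weeks the difference of -0.28 ± 0.14 did not pass (adjusted p = 0.124). The 4-week call against sham was lost without any 1 of replicates 2 and 3 of Rev-nAAC and 3 of sham (adjusted p = 0.0542 to 0.0773), and the 6-week call without any 1 of replicates 1, 2, 3 and 5 of Rev-nAAC and 1, 2, 3, 4 and 5 of sham (adjusted p = 0.0587 to 0.126).

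Pln encodes phospholamban, the small membrane protein that slows SERCA2 until it is phosphorylated; it lies at chr10:53337667-53345987 on the plus strand. At 6 weeks it stood at 5498, 6135, 5340, 7173 and 5336 CPM in Rev-nAAC, 3501, 3878, 3388, 4567 and 4087 CPM in nAAC and 6333, 6955, 7454, 7900 and 6997 CPM in sham libraries. The lowest Rev-nAAC value lay above the highest nAAC value. At 8 weeks the libraries held 5420, 6639, 5986, 5032 and 4647 CPM in Rev-nAAC, 4079, 3504, 3913, 3589 and 3638 CPM in nAAC and 6689, 6609, 5366, 6884 and 6517 CPM in sham ventricles. No nAAC library overlapped the other groups at 8 weeks, whereas the Rev-nAAC and sham libraries mixed. At 4 weeks the means were 4816 ± 802 CPM in Rev-nAAC, 4411 ± 683 CPM in nAAC and 5888 ± 312 CPM in sham ventricles (SD, n = 5 each).

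Pln was lower in nAAC than in sham, with log2 differences of -0.42 ± 0.11, -0.88 ± 0.11 and -0.78 ± 0.11 at 4, 6 and 8 weeks (largest adjusted p = 0.00274). Rev-nAAC exceeded nAAC at 6 weeks (0.60 ± 0.11, adjusted p = 9.01e-05) and 8 weeks (0.57 ± 0.11, adjusted p = 0.000149), with 0.13 at 4 weeks not passing (adjusted p = 0.589). Against sham the Rev-nAAC differences of -0.29, -0.27 and -0.21 did not pass (smallest adjusted p = 0.0513). With sex as a covariate they did at 4 and 6 weeks (-0.34 and -0.33, adjusted p = 0.0232 and 0.0405). Since all sham libraries read as male, that sex term was estimated within Rev-nAAC and nAAC and assumed to hold in sham. The exons of Pln overlap those of Gm47644 and Cep85l on the other strand, at 59.6% and 5.11% of its exon length, and the strand setting of the counting is not given in the sources used here.

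Relative to the pump, its inhibitor was higher in nAAC than in sham ventricles at 4 and 8 weeks. For every 100 Atp2a2 counts there were 65.8, 69.3, 62.9, 49 and 51.1 Pln counts in the 8-week Rev-nAAC libraries, 88.5, 76.5, 68.1, 82.5 and 66.1 in nAAC and 55.5, 50, 59.5, 65.7 and 55 in sham libraries. All 5 nAAC libraries were above all 5 sham libraries, by 0.42 on the log2 scale (two-sided exact permutation test, p = 0.00794, the smallest that 5 against 5 can give; adjusted p = 0.0165 over 27 ratio comparisons). At 4 weeks the ratio was likewise higher in nAAC, at 75.7 ± 12.3, than in sham, at 58.4 ± 4.83 (log2 difference 0.36, exact permutation, adjusted p = 0.0165), a call lost without sham replicate 3 or 5. At 6 weeks 81.6 ± 17.2 in nAAC against 60.7 ± 8.12 in sham did not pass (exact permutation, adjusted p = 0.0857), with nAAC replicate 1 alone among sham values. Without that library the 6-week difference was 0.54 and passed (exact permutation, adjusted p = 0.0134). In Rev-nAAC the ratio was 65.3 ± 8.22, 65.7 ± 3.68 and 59.6 ± 9.05 at 4, 6 and 8 weeks; none of its differences from nAAC or from sham passed (exact permutation, smallest adjusted p = 0.0504). Its difference from nAAC did pass at 6 weeks without nAAC replicate 1 (-0.42) and at 8 weeks without nAAC replicate 5 or Rev-nAAC replicate 2 (-0.41 and -0.42; exact permutation, largest adjusted p = 0.0402).

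Atp2a2 was also set against the summed counts of the 12 ventricular cardiomyocyte markers, a comparison within each library. Single markers were themselves called in nAAC against sham: 4 higher and 2 lower at 4 weeks, 1 and 6 at 6 weeks and 1 and 4 at 8 weeks. Among all genes 19.5, 24.5 and 23.8% were higher and 21.2, 23.8 and 23.5% lower. The ratio is therefore not a level per cell. Per 100 marker counts there were 16.6, 18.1, 20.6, 23.8 and 17.1 Atp2a2 counts in 8-week Rev-nAAC libraries, 9.25, 9.68, 11.5, 9.67 and 10.4 in nAAC and 19.5, 20.8, 17.1, 19.1 and 21.3 in sham libraries. Every nAAC library lay below every Rev-nAAC and sham library of that age, and Rev-nAAC and sham mixed. The log2 difference of nAAC from sham was -0.82, -1.05 and -0.95 at 4, 6 and 8 weeks (exact permutation, adjusted p = 0.0165 each). Rev-nAAC exceeded nAAC by 0.76 at 6 and 0.92 at 8 weeks (exact permutation, adjusted p = 0.0165 each), and by 0.55 at 4 weeks, which did not pass (exact permutation, adjusted p = 0.0504; 0.0153 without nAAC replicate 1 and 0.0402 without nAAC replicate 4). It was below sham at 4 and 6 weeks, with log2 differences of -0.27 and -0.28 (exact permutation, adjusted p = 0.0165 and 0.0286), and at 8 weeks the difference was -0.03 (exact permutation, adjusted p = 0.794). The 4-week call against sham was lost without sham replicate 2, 3, 4 or 5, and the 6-week call without sham replicate 1, 3, 4 or 5.

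**Figure D3:**
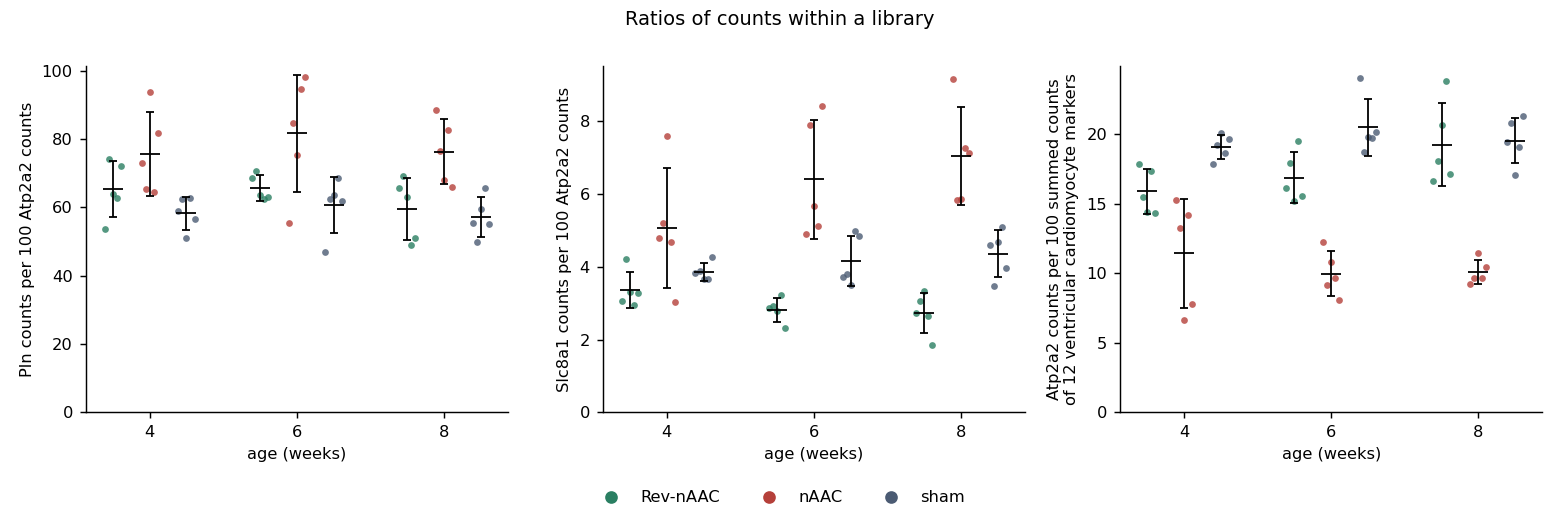
Count ratios in every library at each age: Pln per 100 Atp2a2, Slc8a1 per 100 Atp2a2, and Atp2a2 per 100 summed counts of 12 ventricular cardiomyocyte markers; the dash and whiskers are the mean and SD of 5 libraries. Slc8a1 per Atp2a2 is highest in nAAC and lowest in Rev-nAAC at 6 and 8 weeks.

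Sln encodes sarcolipin, a second small inhibitor of the pump, made mainly in atrial muscle of the mouse heart. It was at or above 1 CPM in 16 of 45 libraries, at 0 counts in 7 and at 1 to 3 counts in 15. A count of 0 allowed up to 3 counts, or 0.0797 to 0.0962 CPM depending on the library (counting error only). At 6 weeks the libraries held 0.06, 0, 0.0284, 0.0309 and 0.0582 CPM in Rev-nAAC, 47, 0.0536, 1.09, 0 and 0.028 CPM in nAAC and 0.82, 18.6, 0.274, 0.0352 and 3.8 CPM in sham ventricles. The nAAC group consisted of 1 high library, replicate 1 with 1859 counts, 1 near 1 CPM and 3 near 0. Rev-nAAC was called lower than nAAC (adjusted p = 0.0267), a call that did not hold without nAAC replicate 1 (adjusted p = 0.562), nor without Rev-nAAC replicate 2, 3, 4 or 5 (adjusted p from 0.0521). No fold is given, since the Rev-nAAC libraries were within 3 counts of 0.

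At 8 weeks Sln stood at 0.0282, 0.0298, 0.0283, 12.3 and 0.0295 CPM in Rev-nAAC, 0.0279, 0.0551, 0, 0.0519 and 6.53 CPM in nAAC and 0, 3.15, 6.04, 14.6 and 6.59 CPM in sham libraries. In 4 of the 5 sham libraries it was above 3 CPM, and in 1 library of each other group. None of the remaining 8 comparisons of operations passed by edgeR with all libraries (smallest adjusted p = 0.078). By DESeq2 Sln was called lower in Rev-nAAC than in sham at 6 weeks (adjusted p = 0.00474). At 8 weeks edgeR called it lower than in sham in Rev-nAAC without Rev-nAAC replicate 4 (adjusted p = 0.04) and in nAAC without nAAC replicate 5 (adjusted p = 0.0325), the 1 library of each group above 3 CPM. Sln went with Myl7, the atrial myosin light chain. All 16 libraries with at least 1 CPM of Sln had Myl7 at 2.52 CPM or more, and the others had 5.64 CPM of Myl7 or less. In the 16 libraries with at least 100 Myl7 counts there were 12.7 to 63.6 Sln counts per 100 of Myl7, with a median of 29.65. The summed 8 atrial markers had medians of 12.16, 15.59 and 16.75 CPM in Rev-nAAC, 20.84, 11.33 and 10.09 CPM in nAAC and 23.19, 42.09 and 83.16 CPM in sham groups at 4, 6 and 8 weeks, with up to 320.8 CPM in nAAC replicate 1 at 6 weeks. Of these markers Bmp10 was at 0 in 35 libraries. Stard10 had the highest median over all libraries, 10.5 CPM, against 0.42 CPM for Myl7, so these group medians do not measure Myl7 alone. The markers did not all move together. In Rev-nAAC against nAAC at 6 weeks 2 of 7 tested were called higher and 4 lower, against 13.8 and 12.1% of all genes. The part of atrial RNA in the Sln values was not tested.

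**Figure D4:**
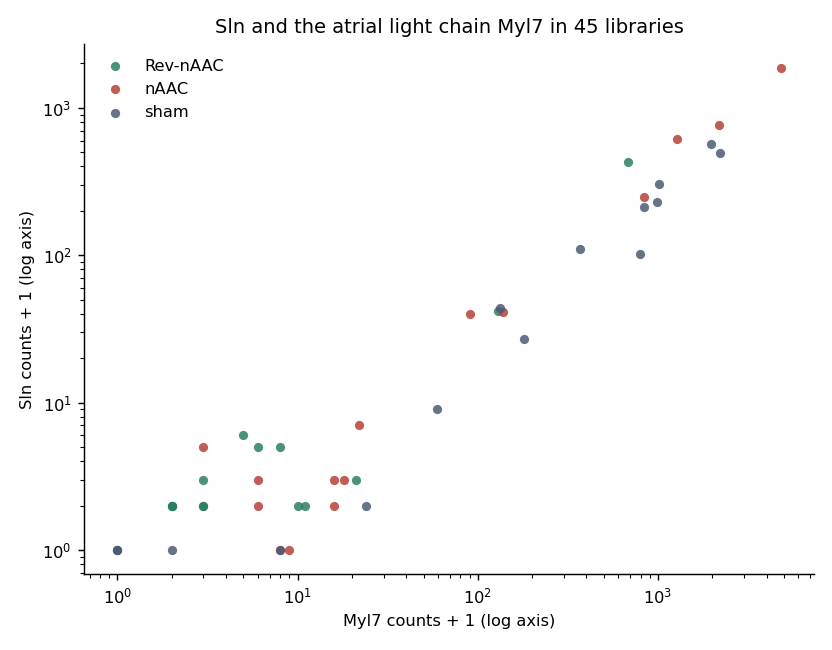
Sln against the atrial light chain Myl7 in the 45 libraries, as counts plus 1 on log axes, coloured by operation. Libraries with many Sln counts also hold many Myl7 counts, in all 3 operations.

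Among the genes of the release site, Ryr2 was lower in nAAC than in sham ventricles at all 3 ages. It encodes the cardiac ryanodine receptor, the release channel, at chr13:11553102-12106945 on the minus strand. At 4 weeks its libraries held 1103, 583, 613, 941 and 884 CPM in Rev-nAAC, 956, 1073, 337, 849 and 416 CPM in nAAC and 1195, 1388, 1565, 1404 and 1626 CPM in sham ventricles. The nAAC replicates 3 and 5 were far below the other 3, and all 5 were under every sham library. At 8 weeks the values were 1029, 1131, 1214, 1392 and 908 CPM in Rev-nAAC, 791, 602, 790, 606 and 842 CPM in nAAC and 1529, 1581, 1117, 1243 and 1662 CPM in sham ventricles. The Rev-nAAC libraries lay above all nAAC libraries and partly within the sham range. Ryr2 in nAAC was 0.506, 0.472 and 0.509 of sham at 4, 6 and 8 weeks (log2 -0.98 ± 0.21, -1.08 ± 0.21 and -0.97 ± 0.21, largest adjusted p = 0.000219).

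In Rev-nAAC, Ryr2 was 1.47 times the nAAC level at 6 weeks (0.55 ± 0.21, adjusted p = 0.0424) and 1.56 times at 8 weeks (0.64 ± 0.21, adjusted p = 0.0146). The 6-week call was lost without any 1 of replicates 3 and 4 of Rev-nAAC and 2, 3, 4 and 5 of nAAC (adjusted p = 0.0504 to 0.187), and the 8-week call without Rev-nAAC replicate 4 (adjusted p = 0.0531). At 4 weeks Rev-nAAC was 0.18 from nAAC (adjusted p = 0.687) and -0.80 ± 0.21 from sham (adjusted p = 0.00362); the difference from sham passed. At 6 and 8 weeks the differences from sham, -0.53 and -0.33, did not (adjusted p = 0.07 and 0.218).

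Trdn encodes triadin, which ties the release channel to the calcium buffer inside the store. At 6 weeks its libraries held 178, 200.2, 181, 198 and 172 CPM in Rev-nAAC, 128, 149, 132, 164 and 159 CPM in nAAC and 171, 197, 210.3, 242 and 211 CPM in sham ventricles. No nAAC value reached either of the other groups, which overlapped with each other. Trdn was lower in nAAC than in sham, with log2 differences of -0.40 ± 0.09, -0.50 ± 0.09 and -0.26 ± 0.09 at 4, 6 and 8 weeks (adjusted p = 0.000507, 1.52e-05 and 0.0145), the 8-week call being lost without sham replicate 2 (adjusted p = 0.0516). It was higher in Rev-nAAC than in nAAC at 6 weeks (0.35 ± 0.09, adjusted p = 0.00348), and 0.07 and 0.20 at 4 and 8 weeks did not pass (adjusted p = 0.738 and 0.0842). Against sham, Rev-nAAC was lower at 4 weeks (-0.33 ± 0.09, adjusted p = 0.00589; 0.0507 without Rev-nAAC replicate 2), with -0.15 and -0.06 at 6 and 8 weeks (adjusted p = 0.254 and 0.607).

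Casq2 was lowest in Rev-nAAC ventricles. It encodes calsequestrin, the protein that holds calcium inside the store, at chr3:102086415-102146514 on the plus strand. At 8 weeks its libraries held 599, 688, 668, 553 and 650 CPM in Rev-nAAC, 892, 879, 937, 739 and 1068 CPM in nAAC and 1366, 1180, 908, 1164 and 1060 CPM in sham ventricles. The Rev-nAAC libraries were all below the lowest nAAC and the lowest sham library, and nAAC and sham overlapped. At 6 weeks the means were 712 ± 121 CPM in Rev-nAAC, 858 ± 103 CPM in nAAC and 1002 ± 48.8 CPM in sham ventricles, and at 4 weeks 720.1 ± 86.4 CPM in Rev-nAAC, 869.8 ± 118 CPM in nAAC and 959.7 ± 42.4 CPM in sham ventricles (SD, n = 5 each). Rev-nAAC was lower than sham, with log2 differences of -0.41 ± 0.11, -0.49 ± 0.11 and -0.85 ± 0.11 at 4, 6 and 8 weeks (adjusted p = 0.00425, 0.0018 and 1.36e-07), with no overlap at any age and no call lost on leaving out 1 library.

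Rev-nAAC was also lower than nAAC for Casq2 at 8 weeks (-0.52 ± 0.11, adjusted p = 0.000349), while -0.27 and -0.27 at 4 and 6 weeks did not pass (adjusted p = 0.169 and 0.064). Among the male libraries alone the 8-week difference was -0.54 and did not pass, with 1 Rev-nAAC and 3 nAAC libraries left (adjusted p = 0.0841). In nAAC against sham Casq2 was lower at 8 weeks (-0.33 ± 0.11, adjusted p = 0.0119), a call lost without nAAC replicate 4 or sham replicate 1 (adjusted p = 0.0547 to 0.0637), and at 4 and 6 weeks -0.14 and -0.22 did not pass (adjusted p = 0.309 and 0.0868).

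Jph2 encodes junctophilin, which holds the store close to the surface membrane. At 8 weeks its libraries held 388, 475, 377, 380 and 411 CPM in Rev-nAAC, 351, 332, 381, 328 and 406 CPM in nAAC and 580, 591, 497, 597 and 537 CPM in sham ventricles. Every Rev-nAAC and every nAAC library was below the sham range, and those groups overlapped with each other. Against sham, nAAC was lower, with log2 differences of -0.25 ± 0.10, -0.64 ± 0.10 and -0.64 ± 0.10 at 4, 6 and 8 weeks (adjusted p = 0.0369, 6.61e-07 and 6.82e-07). The 4-week call was lost without any 1 of replicates 3, 4 and 5 of nAAC and 3 and 5 of sham (adjusted p = 0.0621 to 0.12). By edgeR it was also lost with sex as a covariate (-0.21, adjusted p = 0.0981), with RLE scaling (adjusted p = 0.0547) and with nAAC replicate 1 counted as sham (adjusted p = 0.0952). Rev-nAAC was lower than sham at 6 and 8 weeks, with log2 differences of -0.40 ± 0.10 and -0.46 ± 0.10 (adjusted p = 0.00387 and 0.000195), while -0.22 at 4 weeks did not pass (adjusted p = 0.0829). Its differences from nAAC, 0.02, 0.24 and 0.18, did not pass (smallest adjusted p = 0.0542).

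Cacna1c encodes the pore of the L-type channel, the route of calcium entry, at chr6:118587240-119196418 on the minus strand. At 8 weeks it stood at 221, 296, 253, 262 and 150.4 CPM in Rev-nAAC, 175, 129.8, 178, 174 and 175 CPM in nAAC and 212, 231, 177, 194 and 235 CPM in sham libraries. Rev-nAAC replicate 5 lay within the nAAC range and the other 4 above it. Rev-nAAC was called higher than nAAC (0.51 ± 0.17, adjusted p = 0.0168), a call lost without nAAC replicate 2 or Rev-nAAC replicate 2 (adjusted p = 0.0591 to 0.0735). Replicate 5 was the sole male library of its group, and with male libraries only the difference turned to -0.09 (adjusted p = 0.915). In nAAC against sham it fell at 6 weeks (-0.70 ± 0.17, adjusted p = 0.000611), with means of 162 ± 23.7 CPM in nAAC and 263 ± 50.1 CPM in sham (SD, n = 5 each), while -0.31 and -0.34 at 4 and 8 weeks did not pass (adjusted p = 0.132 and 0.0927). Against sham, Rev-nAAC was lower at 6 weeks (-0.54 ± 0.17, adjusted p = 0.0219), and that call was lost without any 1 of replicates 1 of Rev-nAAC and 1 and 5 of sham (adjusted p = 0.062 to 0.073). At 4 and 8 weeks -0.34 and 0.17 did not pass (adjusted p = 0.131 and 0.453).

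Slc8a1, the sodium-calcium exchanger that expels calcium from the cell, was low in nAAC and lower still in Rev-nAAC ventricles at 8 weeks. It lies at chr17:81373105-81738377 on the minus strand. At 6 weeks its libraries held 229.8, 253, 235, 371 and 195 CPM in Rev-nAAC, 309.7, 362, 256, 247 and 351 CPM in nAAC and 501, 423, 409.9, 574 and 548 CPM in sham ventricles. At 8 weeks they held 225, 293, 318, 273 and 169 CPM in Rev-nAAC, 422, 268, 338, 316 and 392 CPM in nAAC and 554, 458, 423, 536 and 470.5 CPM in sham ventricles. At both ages the sham libraries were above all others, and Rev-nAAC and nAAC overlapped. Rev-nAAC was 0.632, 0.523 and 0.524 of sham at 4, 6 and 8 weeks (-0.66 ± 0.17, -0.94 ± 0.17 and -0.93 ± 0.17, largest adjusted p = 0.00321), and no single library decided these calls. Relative to nAAC it was lower at 8 weeks (-0.44 ± 0.17, adjusted p = 0.0403), and that call was lost without any 1 of replicates 1 and 5 of Rev-nAAC and 1, 3 and 5 of nAAC (adjusted p = 0.0541 to 0.132). The male libraries alone gave -1.09 (adjusted p = 0.0158), with 1 Rev-nAAC library, assumed to vary like the other groups, and 3 nAAC libraries. At 4 and 6 weeks -0.24 and -0.25 did not pass (adjusted p = 0.485 and 0.292).

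In nAAC, Slc8a1 was lower than in sham, with log2 differences of -0.42 ± 0.17, -0.69 ± 0.17 and -0.49 ± 0.17 at 4, 6 and 8 weeks (adjusted p = 0.0409, 0.000857 and 0.0151). The 4-week call was lost without any 1 of replicates 3, 4 and 5 of nAAC and 2, 3 and 5 of sham (adjusted p = 0.0511 to 0.203), and the 8-week call without nAAC replicate 2 (adjusted p = 0.056). Relative to the pump the exchanger was higher in nAAC: per 100 Atp2a2 counts there were 2.74, 3.06, 3.35, 2.66 and 1.86 Slc8a1 counts in the 8-week Rev-nAAC libraries, 9.16, 5.85, 5.88, 7.28 and 7.12 in nAAC and 4.6, 3.47, 4.69, 5.11 and 3.97 in sham libraries. The groups did not overlap at all, with nAAC highest and Rev-nAAC lowest. At 8 weeks the log2 ratio differed by 0.69 between nAAC and sham, by -1.38 between Rev-nAAC and nAAC and by -0.69 between Rev-nAAC and sham (exact permutation, adjusted p = 0.0165 each). At 6 weeks the same differences were 0.60, -1.15 and -0.55 (exact permutation, adjusted p = 0.0286, 0.0165 and 0.0165). The 6-week call between nAAC and sham was lost without nAAC replicate 2 or 5 or sham replicate 1, 2, 3 or 5. At 4 weeks 0.33, -0.54 and -0.21 did not pass (exact permutation, adjusted p = 0.179, 0.0595 and 0.0789); without nAAC replicate 5 the first was 0.50 and the second -0.71 and both passed, and without Rev-nAAC replicate 2 the last was -0.29 and passed.

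Camk2d encodes the main cardiac form of calcium/calmodulin-dependent kinase II, which phosphorylates phospholamban and the release channel. At 8 weeks its libraries held 107, 118, 122, 92.8 and 110.5 CPM in Rev-nAAC, 131, 113, 122, 122 and 128 CPM in nAAC and 169, 155, 148, 178 and 148 CPM in sham ventricles. All sham libraries were above all others, and Rev-nAAC and nAAC overlapped. Camk2d was lower in nAAC than in sham, with log2 differences of -0.29 ± 0.09, -0.36 ± 0.09 and -0.37 ± 0.09 at 4, 6 and 8 weeks (adjusted p = 0.0121, 0.00124 and 0.000994), the 4-week call being lost without nAAC replicate 5 or sham replicate 5 (adjusted p = 0.052 to 0.104). Rev-nAAC was lower than sham at 6 and 8 weeks (-0.32 ± 0.09 and -0.53 ± 0.09, adjusted p = 0.0155 and 1.84e-05; at 6 weeks 0.0514 without Rev-nAAC replicate 5). At 4 weeks -0.23 did not pass (adjusted p = 0.0601), and neither did the differences from nAAC, 0.05, 0.05 and -0.16 (smallest adjusted p = 0.187).

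In sham ventricles no member of the set passed between neighbouring ages by edgeR fitted over all groups. At 6 against 4 weeks 0 of 10 passed by edgeR's quasi-likelihood test, 3 had an unadjusted p under 0.05 and 3 passed by DESeq2, where 7.32% of all genes were called higher and 9.58% lower by edgeR. That 0 became 1 with RLE scaling or with no filter on low counts, and 6 (Atp2a2, Pln, Slc8a1, Cacna1c, Jph2 and Camk2d, all higher at 6 weeks) when only the compared groups were fitted. In that last fit 5009 of all genes were called, in place of 2611 in the fit over all groups. At 8 against 6 weeks 0 passed by edgeR and by DESeq2 and 0 had an unadjusted p under 0.05, against 1.06% and 0.771% of all genes higher and lower. Pln averaged 5888 ± 312, 7128 ± 588 and 6413 ± 601 CPM in sham at 4, 6 and 8 weeks, and Jph2 452 ± 36.5, 542 ± 27.2 and 560.1 ± 42.6 CPM (SD, n = 5 each). The 6-week libraries did not overlap the 4-week libraries for Pln and Camk2d, yet 0.28 and 0.23 did not pass (adjusted p = 0.0834 and 0.0856).

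Whether the difference of nAAC from sham changed with age was tested as an interaction, to which changes in both groups contribute. Jph2 averaged 381, 348 and 359 CPM in nAAC and 452, 542 and 560 CPM in sham at 4, 6 and 8 weeks. For Pln the means were 4411, 3884 and 3744 CPM in nAAC and 5888, 7128 and 6413 CPM in sham. The difference of nAAC from sham was larger at 6 than at 4 weeks for Pln (-0.46 ± 0.16, adjusted p = 0.0384) and Jph2 (-0.39 ± 0.14, adjusted p = 0.0381), 2 genes called lower and 0 higher, where 8.32% of all genes were lower and 8.96% higher. At 8 against 4 weeks it was larger for Jph2 (-0.39 ± 0.14, adjusted p = 0.046), 1 gene lower and 0 higher, against 6.7% lower and 6.86% higher. For Atp2a2 the corresponding values of -0.52 and -0.43 did not pass (adjusted p = 0.0653 and 0.143). The first passed by DESeq2 (-0.54, adjusted p = 0.0374) and by edgeR without replicate 3 or 5 of nAAC at 4 weeks or 1 of nAAC at 6 weeks (adjusted p = 0.00891, 0.0483 and 0.0175), and the second without nAAC replicate 3 at 4 weeks (-0.57, adjusted p = 0.03). The Pln call was lost without any 1 of replicates 1, 2 or 3 of nAAC at 6 weeks, 1 or 2 of nAAC at 4 weeks, 3 or 4 of sham at 6 weeks and 1 or 3 of sham at 4 weeks (adjusted p = 0.0517 to 0.0827). The 6-week Jph2 call was lost without replicate 3 of nAAC at 6 weeks, 2 of nAAC at 4 weeks, 1, 4 or 5 of sham at 6 weeks or 1, 2 or 4 of sham at 4 weeks (adjusted p = 0.0522 to 0.0697). The 8-week Jph2 call was lost without replicate 1, 2 or 4 of nAAC at 8 weeks, 1 or 2 of nAAC at 4 weeks, 1 or 2 of sham at 8 weeks or 1, 2 or 4 of sham at 4 weeks (adjusted p = 0.0519 to 0.0887). None of these 3 calls was made with male libraries only. For Rev-nAAC against nAAC at 8 compared with 4 weeks, 0 of 10 passed by edgeR, 4 had an unadjusted p under 0.05 and 2 passed by DESeq2, with 4.05% of all genes higher and 3.86% lower by edgeR. Those shares are 1222 genes, which became 0 when only the compared groups were fitted and 474 to 2458 on leaving out 1 library. Atp2a2 (0.59 ± 0.20, adjusted p = 0.0571) and Pln (0.44 ± 0.16, adjusted p = 0.0738) came nearest.

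To compare levels between genes, CPM were divided by the length of each gene's merged exons in kilobases, from GENCODE vM21. The order of mean level per kilobase was Pln, Atp2a2, Casq2, Jph2 and Ryr2 in all 9 groups. In sham ventricles at 8 weeks Pln stood at 2320 ± 218 CPM per kilobase, Atp2a2 at 1860 ± 265, Casq2 at 415 ± 61.5, Jph2 at 132 ± 10 and Ryr2 at 49.5 ± 8.13 (SD, n = 5 each). Pln and Atp2a2 overlapped there, while the next 3 were apart from each other in all libraries. Slc8a1 followed at 26 ± 2.92, Trdn at 20.1 ± 1.22, Cacna1c at 9.91 ± 1.16, Camk2d at 7.1 ± 0.591 and Sln at 4.6 ± 4.11 CPM per kilobase, the last 2 overlapping. Slc8a1 ranked above Trdn in nAAC and sham at 6 and 8 weeks and below it in all 3 Rev-nAAC groups and at 4 weeks. The libraries of these genes overlapped in every group except Rev-nAAC and sham at 8 weeks.

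Over the 9 group means of log2 CPM, the gene most like Atp2a2 among the 10 was Pln (Pearson r = 0.986), followed by Ryr2 (0.946) and Trdn (0.934), whereas Casq2 had r = 0.199 with it. Slc8a1 was most like Casq2 (0.923) and Camk2d (0.878). Beyond the 10 genes, those most like Atp2a2 among 11839 candidates were Acaa2, Dram2 and Fbp2 (0.995 each), Nadk2 (0.994) and Dnajc28 (0.993). Those most like Sln were Ctc1 (0.977), Myl7 (0.971), Myl4 (0.944), Clec3a (0.932) and Ap2a1 (0.919). These are descriptions over 9 points that share the same libraries and scaling.

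Of 109 other genes of calcium cycling in 8 lists, 105 could be tested. In nAAC against sham 20 were higher and 28 lower at 4 weeks, 24 and 39 at 6 weeks, and 22 and 38 at 8 weeks. Among all genes 19.5, 24.5 and 23.8% were higher and 21.2, 23.8 and 23.5% lower at these ages. The median log2 differences were -0.10, -0.16 and -0.08, against -0.03, 0.02 and 0.02 over all genes. In Rev-nAAC against nAAC 1 was higher and 4 lower at 4 weeks, 23 and 16 at 6 weeks, and 22 and 23 at 8 weeks, where 0.79, 13.8 and 16.9% of all genes were higher and 1.76, 12.1 and 16% lower. The medians were 0.01, 0.02 and 0.03, and 0.01, 0.01 and 0.03 over all genes. When only the compared groups were fitted, 0 genes in all were called at 4 weeks in place of 394, so the 4-week calls of Rev-nAAC against nAAC given below for Cacna2d2, Micu2, Prkar1a and Camk1d were lost, and leaving out 1 library gave 42 to 1423. In Rev-nAAC against sham 12 were higher and 21 lower at 4 weeks, 7 and 24 at 6 weeks, and 12 and 32 at 8 weeks, where 12.2, 8.66 and 18.3% of all genes were higher and 13.1, 8.39 and 17.3% lower. The medians were -0.08, -0.12 and -0.07, and -0.01, 0.02 and 0.03 over all genes.

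Among 13 other genes of the pump and its partners, 6 were higher and 0 lower in Rev-nAAC than in nAAC at 6 weeks, and 6 were higher and 2 lower at 8 weeks, where 13.8 and 16.9% of all genes were higher and 12.1 and 16% lower. Hrc, a calcium-binding protein inside the store, averaged 688 ± 140 CPM in Rev-nAAC, 288 ± 48.1 CPM in nAAC and 798 ± 54.8 CPM in sham ventricles at 6 weeks (SD, n = 5 each, as for the means that follow). It was lower in nAAC than in sham at all 3 ages (-0.70, -1.47 and -1.44, largest adjusted p = 0.000721) and higher in Rev-nAAC than in nAAC at 6 and 8 weeks (1.26 and 1.05, largest adjusted p = 6.5e-06). Strit1 encodes DWORF, a micropeptide that counters phospholamban at the pump. It stood at 5.92 ± 3.09 CPM in Rev-nAAC, 0.94 ± 0.284 CPM in nAAC and 10.1 ± 3.31 CPM in sham ventricles at 6 weeks. It was lower in nAAC than in sham at 6 and 8 weeks (-3.41 and -1.48) and higher in Rev-nAAC than in nAAC (2.65 and 1.95; largest adjusted p of these = 0.000852). Atp2a3, a pump isoform of non-muscle cells, was higher than in sham in Rev-nAAC at 4 and 8 weeks (0.66 and 0.86, largest adjusted p = 0.000313) and in nAAC at all 3 ages (0.48, 0.49 and 0.61, largest adjusted p = 0.00415). Sri, the calcium-binding protein sorcin, was higher in Rev-nAAC than in sham at 6 weeks (0.29 ± 0.08, adjusted p = 0.00753).

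Of 12 other genes of the release complex, 0 were higher and 2 lower in Rev-nAAC than in sham at 4 weeks. The counts were 0 and 2 at 6 weeks and 0 and 6 at 8 weeks. Among all genes 12.2, 8.66 and 18.3% were higher and 13.1, 8.39 and 17.3% lower. In Rev-nAAC against nAAC 0 were higher and 0 lower, 1 and 3, and 2 and 3 at these ages. The shares of all genes were 0.79, 13.8 and 16.9% higher and 1.76, 12.1 and 16% lower. In nAAC against sham the counts were 1 and 3, 4 and 3, and 2 and 4. There 19.5, 24.5 and 23.8% of all genes were higher and 21.2, 23.8 and 23.5% lower. Srl, the luminal calcium buffer sarcalumenin, averaged 709 ± 101 CPM in Rev-nAAC, 834 ± 66.6 CPM in nAAC and 1362 ± 181 CPM in sham ventricles at 8 weeks. It was lower than in sham at all 3 ages in Rev-nAAC (-0.50, -0.40 and -0.94) and in nAAC (-0.51, -0.40 and -0.71; largest adjusted p = 0.00942). Of 9 tested genes of the junctional membrane, 3 were higher and 3 lower in nAAC than in sham at 4 weeks, 1 and 5 at 6 weeks and 1 and 4 at 8 weeks, while among all genes 19.5, 24.5 and 23.8% were higher and 21.2, 23.8 and 23.5% lower at 4, 6 and 8 weeks. Mtm1, the lipid phosphatase myotubularin, was lower at all 3 ages (-0.69, -0.92 and -0.78, largest adjusted p = 0.000188).

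Of 16 tested voltage-gated channel genes, 5 were higher and 5 lower in nAAC than in sham at 4 weeks, 2 and 4 at 6 weeks and 3 and 7 at 8 weeks. Among all genes 19.5, 24.5 and 23.8% were higher and 21.2, 23.8 and 23.5% lower. Cacnb1, a beta subunit of such channels, averaged 7.42 ± 1.08 CPM in Rev-nAAC, 11.8 ± 1.5 CPM in nAAC and 4.46 ± 0.69 CPM in sham ventricles at 8 weeks. It was higher in nAAC than in sham at all 3 ages (1.22, 1.06 and 1.40, largest adjusted p = 4.67e-07). Cacna1h, a T-type channel, averaged 4.35 ± 2.45 CPM in Rev-nAAC, 4.64 ± 1.35 CPM in nAAC and 15.3 ± 4.63 CPM in sham ventricles at 6 weeks, and was lower than in sham at all 3 ages in Rev-nAAC (-1.31, -1.82 and -1.45) and in nAAC (-0.99, -1.72 and -1.87; largest adjusted p = 0.0039). Cacng6, a gamma subunit, averaged 0.046 ± 0.0437 CPM in Rev-nAAC, 0.0615 ± 0.0876 CPM in nAAC and 0.766 ± 0.214 CPM in sham ventricles at 4 weeks and was called lower than sham in both (adjusted p = 2.94e-05 and 4.25e-05); no fold is given at so few counts. Cacna2d2, an alpha2delta subunit, was lower in Rev-nAAC than in nAAC at 4 weeks (-1.78 ± 0.50, adjusted p = 0.0417), a call lost when only these groups were fitted and without any 1 of replicates 2 and 5 of nAAC and 2, 4 and 5 of Rev-nAAC.

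Among 10 tested genes of extrusion and of the sodium pump, which sets the gradient that drives the exchanger, 1 was lower and 0 higher in Rev-nAAC than in sham at 4 weeks, 3 and 0 at 6 weeks and 2 and 1 at 8 weeks, where 13.1, 8.39 and 17.3% of all genes were lower and 12.2, 8.66 and 18.3% higher. Atp1b1, a beta subunit of the sodium pump, was lower in Rev-nAAC than in nAAC at 6 and 8 weeks (-0.33 and -0.44) and than in sham (-0.58 and -0.98; largest adjusted p = 0.00265). Slc8b1, the mitochondrial sodium-calcium exchanger, was higher in Rev-nAAC than in sham at 8 weeks (0.56 ± 0.12, adjusted p = 0.000236).

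Of 12 genes of IP3 receptors and store-operated entry, 1 was higher and 1 lower in nAAC than in sham at 4 weeks, 3 and 1 at 6 weeks and 5 and 1 at 8 weeks, while 19.5, 24.5 and 23.8% of all genes were higher and 21.2, 23.8 and 23.5% lower. Orai2, a subunit of the store-operated channel, averaged 2.74 ± 0.334 CPM in Rev-nAAC, 5.39 ± 1.21 CPM in nAAC and 1.35 ± 0.295 CPM in sham ventricles at 8 weeks. It was higher in nAAC than in sham at 6 weeks (1.86) and at 8 weeks, and lower in Rev-nAAC than in nAAC (-1.09 and -0.98; largest adjusted p of these 4 = 0.000327). Stim1, the calcium sensor of the store, was higher in Rev-nAAC than in sham at all 3 ages (0.36, 0.32 and 0.57, largest adjusted p = 0.0198), its relative Stim2 at 6 weeks (0.52 ± 0.12, adjusted p = 0.00293), and the IP3 receptor Itpr3 at 4 and 8 weeks (0.66 and 0.35, largest adjusted p = 0.0393). Trpc6, a receptor-operated cation channel, averaged 0.261 ± 0.111 CPM in Rev-nAAC, 0.522 ± 0.159 CPM in nAAC and 0.0408 ± 0.0377 CPM in sham ventricles at 6 weeks and was called higher in Rev-nAAC than in sham (adjusted p = 0.00274); no fold is given at so few counts. Trpm4, a calcium-activated cation channel, was higher in Rev-nAAC than in nAAC at 6 and 8 weeks (0.61 and 0.60, largest adjusted p = 2.67e-05).

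Among the 8 genes of the mitochondrial uniporter, 3 were higher and 3 lower in nAAC than in sham at 4 weeks, 3 and 3 at 6 weeks and 2 and 3 at 8 weeks, beside 19.5, 24.5 and 23.8% higher and 21.2, 23.8 and 23.5% lower among all genes. Micu2, which gates the uniporter, averaged 90.6 ± 10.3 CPM in Rev-nAAC, 125 ± 5.82 CPM in nAAC and 80.3 ± 1.87 CPM in sham ventricles at 8 weeks. It was higher in nAAC than in sham at all 3 ages (0.66, 0.43 and 0.64, largest adjusted p = 4.54e-06) and lower in Rev-nAAC than in nAAC at all 3 ages (-0.46, -0.43 and -0.47, largest adjusted p = 0.000869), the 4-week call being lost when only these groups were fitted. Mcur1, a regulator of the uniporter, was lower in nAAC than in sham at all 3 ages (-0.26, -0.60 and -0.69, largest adjusted p = 0.00455).

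Of 25 kinases, phosphatases and their anchors, 4 were higher and 8 lower in nAAC than in sham at 4 weeks, and 5 and 12 at both 6 and 8 weeks. The shares of all genes were 19.5, 24.5 and 23.8% higher and 21.2, 23.8 and 23.5% lower. Rcan1, an inhibitor of calcineurin that calcineurin signalling is known to induce, averaged 138 ± 55.4 CPM in Rev-nAAC, 391 ± 53.2 CPM in nAAC and 74.1 ± 5.84 CPM in sham ventricles at 6 weeks. It was higher in nAAC than in sham at all 3 ages (1.63, 2.40 and 1.87, largest adjusted p = 6.08e-06) and lower in Rev-nAAC than in nAAC at 6 and 8 weeks (-1.50 and -1.60, largest adjusted p = 4.78e-05). Camk2a, another form of the kinase encoded by Camk2d, was lower in nAAC than in sham at all 3 ages (-0.69, -1.76 and -1.51, largest adjusted p = 0.000493) and higher in Rev-nAAC than in nAAC at 6 and 8 weeks (1.11 and 0.71, largest adjusted p = 0.000561). Prkar1a, a regulatory subunit of protein kinase A, was lower in Rev-nAAC than in nAAC at all 3 ages (-0.40, -0.66 and -0.78, largest adjusted p = 0.0369), but at 4 weeks not when only these groups were fitted, nor without any 1 of replicates 3 and 4 of nAAC and 1, 4 and 5 of Rev-nAAC. Camk2g, the gamma form, was lower than in sham at all 3 ages in Rev-nAAC (-0.39, -0.39 and -0.25) and in nAAC (-0.40, -0.41 and -0.27; largest adjusted p = 0.00781). Pde4d, which breaks down cAMP, was lower in Rev-nAAC than in sham at all 3 ages (-0.44, -0.74 and -0.78, largest adjusted p = 0.0122), and Camk1d, a form of kinase I, was higher in Rev-nAAC than in nAAC at 4 weeks (0.67 ± 0.18, adjusted p = 0.0368), a call lost when only these groups were fitted and without any 1 of replicates 2, 3 and 5 of nAAC and 1, 2, 4 and 5 of Rev-nAAC.

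**Figure D5:**
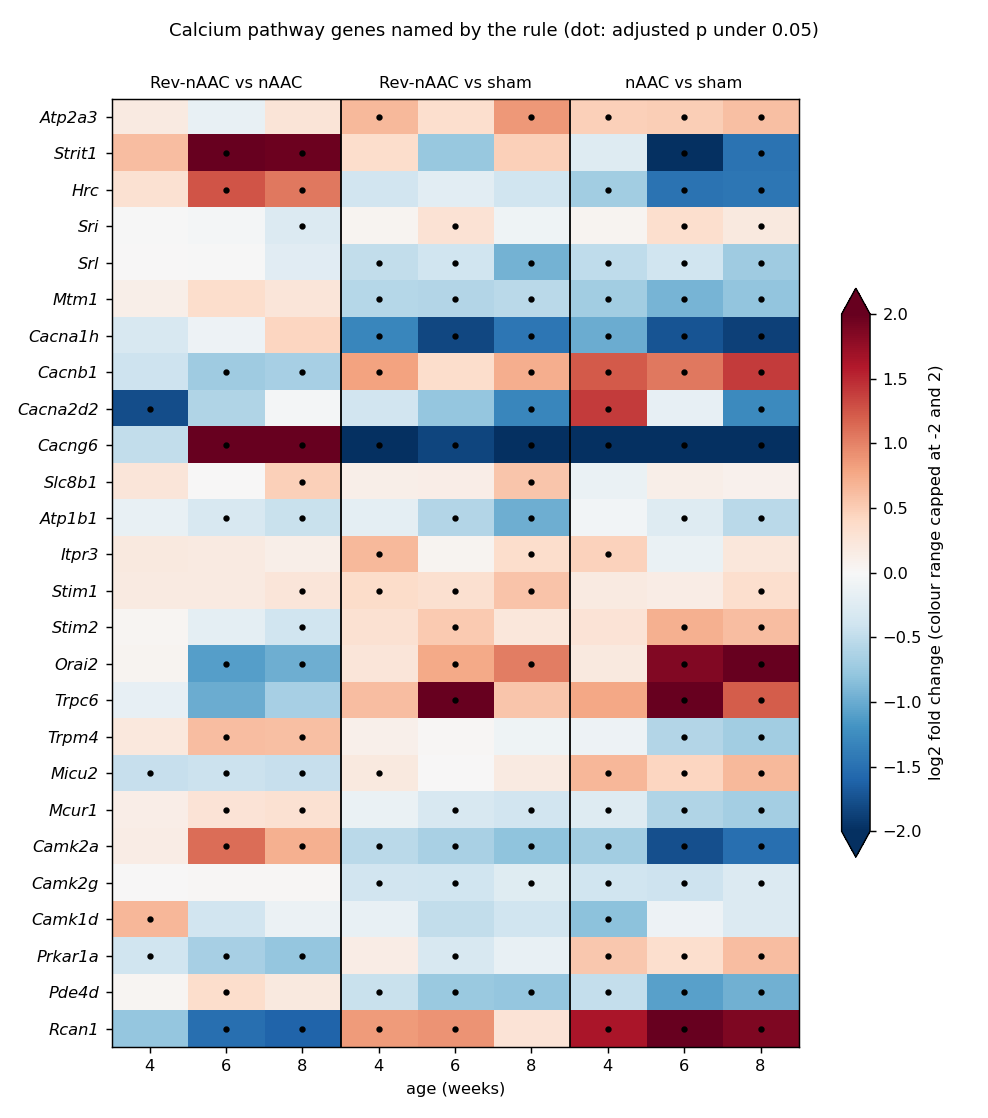
Log2 differences of the named genes of the 8 calcium cycling lists (rows) in the 9 comparisons of operations (columns), from edgeR, as colour capped at -2 and 2; dots mark an adjusted p under 0.05. Hrc, Strit1 and Camk2a are low in nAAC against sham and high in Rev-nAAC against nAAC at 6 weeks, and Rcan1 and Micu2 run the other way.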

How the data were processed

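RNA-seq libraries of left ventricle, 45 in all, were used. The authors deposited whole-number read counts per gene, made per the submitters' processing notes with fastp 0.20.1, HISAT2 2.1.0 and HTSeq 0.11.2 on GRCm38 (mm10); the gene annotation and strand setting are not given in the sources used here. The table held no value columns other than those of the 45 libraries. No libraries were duplicates (the closest pair had r = 0.996 across genes).

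From these counts edgeR 4.0.16 (R 4.3.3, limma 3.58.1) gave TMM-scaled CPM and log2 differences from 1 quasi-likelihood fit over 9 groups, after filterByExpr (minimum count 10, minimum total 15), with Benjamini-Hochberg adjustment over 15444 genes and a threshold of 0.05. The interactions are contrasts of the same fit. The code was tested on simulated data. Ratios of counts in a library (with 0.5 added to each count) were set against each other by exact permutation, two-sided, with adjustment over 27.

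The 10 genes and all lists were chosen with earlier results of these data known. From the lists, up to 3 called genes with the smallest p in each direction were named for each comparison of operations. Some genes that this rule names are not reported here. Genes were called alike by Pearson r over the 9 group means of log2 CPM, among genes with a mean of at least 2 CPM. Replicate numbers were checked for pairing: in each of 11 comparisons at most 2 of 5 same-numbered pairs had r above 0.1 between their deviations, so no block was used. Alternatives were DESeq2 1.42.0, RLE scaling, no filter on low counts, a replicate block, only the compared groups, each library left out, sex as a covariate, the library with conflicting labels counted as sham and, chosen after seeing the data, male libraries only and libraries under 10 CPM of Myl7. Coordinates are from GENCODE vM21 (GRCm38), and promoters from RefSeq (GRCm38.p6).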

Additional observations from a re-analysis of the deposited data

Results flagged for a closer look

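In 14 of 117 sets of 5 libraries, 1 library lay apart from the other 4 by Dixon's criterion, which chance alone meets in about 1 set in 20. Atp2a2 stood at 11480 CPM in Rev-nAAC replicate 4 at 6 weeks, against 8022 to 8682 CPM in the others, and Ryr2 stood apart in the same library, at 1375 CPM against 829.7 to 929.8 CPM. In sham replicate 1 at 6 weeks Atp2a2 reached 13490 CPM, against 11110 to 11720 CPM, and 24.03 counts per 100 ventricular marker counts, against 18.74 to 20.15. Pln was at 5366 CPM in sham replicate 3 at 8 weeks, below 6517 to 6884 CPM in the others. Trdn was at 208 CPM in sham replicate 2 at 8 weeks, above 180.6 to 187.3 CPM. Cacna1c was at 129.8 CPM in nAAC replicate 2 at 8 weeks, below 173.5 to 177.7 CPM. Slc8a1 per 100 Atp2a2 counts was 4.212 in Rev-nAAC replicate 2 at 4 weeks, against 2.961 to 3.32.

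Sln stood apart in 6 libraries, each far above the rest of its group: 1.113 CPM in Rev-nAAC replicate 2 at 4 weeks, 12.28 CPM in Rev-nAAC replicate 4 at 8 weeks, 46.99 CPM in nAAC replicate 1 at 6 weeks, 6.531 CPM in nAAC replicate 5 at 8 weeks, 9.201 CPM in sham replicate 1 at 4 weeks and 18.6 CPM in sham replicate 2 at 6 weeks.

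Of 30 interaction tests, 10 of them on the Rev-nAAC against nAAC difference, 3 were called, all on the effect of nAAC against sham. They were Pln at 6 against 4 weeks (log2 -0.4589), Jph2 at 6 against 4 weeks (-0.3946) and Jph2 at 8 against 4 weeks (-0.3935), all larger at the later age.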

How the results depend on the processing

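Of 52 calls among the 10 genes, DESeq2 kept 50, RLE scaling 50, no filter on low counts 47, the replicate block 50 and sex as a covariate 51. Leaving out 1 library kept 470 of 550. The sex term was estimated in Rev-nAAC and nAAC libraries alone, as sham libraries read as male. Fewer calls were kept with male libraries only and with libraries under 10 CPM of Myl7 (low-Myl7 libraries). No count is given for these sets, since each left 1 library in some group. Low-Myl7 libraries numbered 5, 5 and 4 in Rev-nAAC, 3, 4 and 4 in nAAC and 4, 3 and 1 in sham at 4, 6 and 8 weeks. The count of genes called in sham at 6 against 4 weeks, 0, became 1 with RLE scaling, 1 with no filter, 6 with only the compared groups, 2 with the conflicting library as sham, 3 by DESeq2 and 2 with male libraries only. In nAAC against sham it was 4 at 4 weeks with only the compared groups and with low-Myl7 libraries, and 4 at 6 weeks in males. In males it was 1 and 2 in Rev-nAAC against nAAC at 6 and 8 weeks and 3 in Rev-nAAC against sham at 4 weeks. The age effects of nAAC at 6 and 8 against 4 weeks were called in 0 and 0 genes in males and with low-Myl7 libraries, the 8-week one in 0 with the replicate block, and the 6-week one in 1 with the conflicting library as sham. The change of the Rev-nAAC against nAAC difference at 8 against 4 weeks was called in 2 by DESeq2. Leaving out 1 library gave 4 to 7 in nAAC against sham and 3 to 8 in Rev-nAAC against sham at 4 weeks, 0 to 3, 0 to 2 and 0 to 3 for these age effects in the order given, and 0 to 1 for sham at 6 against 4 weeks. Cacna1c in Rev-nAAC against nAAC at 8 weeks reversed to -0.088 in males.

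With the replicate block the 15 called ratios each had an adjusted p of 0.0938 and missed the threshold: 0.3649 and 0.4154 (Pln to Atp2a2, nAAC against sham, 4 and 8 weeks), 0.599 and 0.6853 (Slc8a1 to Atp2a2, 6 and 8 weeks), -1.154 and -1.376 (Rev-nAAC against nAAC), -0.5548 and -0.691 (Rev-nAAC against sham), and for Atp2a2 to ventricular markers -0.8169, -1.046 and -0.9516 (nAAC against sham), 0.7649 and 0.9207 (Rev-nAAC against nAAC) and -0.2693 and -0.2814 (Rev-nAAC against sham). For ratios the block was a sign-flip test of the 5 same-numbered pairs, whose smallest possible p is above 0.05. No ratio could pass in this setting, so the misses say nothing about the calls. Same-numbered libraries shared only a number. With the conflicting library as sham, Pln to Atp2a2 at 4 weeks (0.3205) and Atp2a2 to markers in Rev-nAAC against sham (-0.2158) missed and Atp2a2 to markers in Rev-nAAC against nAAC (0.6714) passed. In males Pln to Atp2a2 (0.4282) and Atp2a2 to markers (-1.023) in nAAC against sham at 4 weeks missed and Slc8a1 to Atp2a2 in Rev-nAAC against sham (-0.3102) passed. With 2 nAAC and 5 sham male libraries at 4 weeks, the permutation test between them is too coarse to pass after adjustment. With low-Myl7 libraries Pln to Atp2a2 at 6 weeks (0.5738 in nAAC against sham, -0.4193 in Rev-nAAC against nAAC) and Slc8a1 to Atp2a2 at 4 weeks (0.5217 and -0.7305) passed, and 0.7251 for Slc8a1 to Atp2a2 in nAAC against sham and -0.3288 for Atp2a2 to markers in Rev-nAAC against sham, both at 6 weeks, missed. At 6 weeks the low-Myl7 set held 5 Rev-nAAC, 4 nAAC and 3 sham libraries, so the permutation test against sham was coarser than with 5 against 5. The cause was not tested. Leaving out 1 library, Pln to Atp2a2 ranged from 0.2838 to 0.4182 and 0.3205 to 0.5425 (nAAC against sham, 4 and 6 weeks) and from -0.4193 to -0.2136 and -0.4192 to -0.2946 (Rev-nAAC against nAAC, 6 and 8 weeks), Slc8a1 to Atp2a2 from 0.1677 to 0.5006 and 0.4911 to 0.6862 (nAAC against sham, 4 and 6 weeks), -0.7075 to -0.3746 (Rev-nAAC against nAAC, 4 weeks) and -0.29 to -0.163 (Rev-nAAC against sham, 4 weeks), and Atp2a2 to markers from 0.3715 to 0.6714 (Rev-nAAC against nAAC, 4 weeks), -0.3125 to -0.234 and -0.3352 to -0.2227 (Rev-nAAC against sham, 4 and 6 weeks).

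Counts over all genes moved by over 1.5 times in some settings. For sham at 6 against 4 weeks, 2611 became 5009 with only the compared groups. In Rev-nAAC against nAAC at 4 weeks, 394 became 0 with only the compared groups, 670 by DESeq2, 1215 with the conflicting library as sham and 42 to 1423 on leaving out 1 library. In males 7453 became 4500 for nAAC against sham at 6 weeks, and 4002 and 5083 became 1069 and 596 for Rev-nAAC against nAAC at 6 and 8 weeks. The change of the Rev-nAAC against nAAC difference at 8 against 4 weeks, 1222 genes, became 0 with only the compared groups, 718 with no filter, 519 with sex as a covariate, 5 in males and 48 with low-Myl7 libraries.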

Other observations

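At 4 weeks the coefficient of variation over the 5 libraries of each group was larger in nAAC than in sham for 8 of the 10 genes. For Ryr2 it was 26.9% in Rev-nAAC, 45.5% in nAAC and 11.8% in sham ventricles. For Cacna1c it was 20.7% in Rev-nAAC, 32.1% in nAAC and 9.78% in sham, for Slc8a1 15.3, 25.8 and 10.6%, for Atp2a2 21.9, 24.1 and 8.3%, and for Camk2d 14.1, 17.8 and 5.32% in the same groups. Pln had 16.6% in Rev-nAAC, 15.5% in nAAC and 5.3% in sham, Casq2 12, 13.6 and 4.41%, and Trdn 17, 8.94 and 4.37%. The exceptions were Jph2, with 17.7% in Rev-nAAC, 6.07% in nAAC and 8.09% in sham, and Sln, with 153% in Rev-nAAC, 132% in nAAC and 189% in sham. The share of all genes with a larger coefficient in nAAC was not counted. Over all tested genes the 4-week nAAC libraries had a median r with their own group of 0.974 to 0.9869. In 4-week sham it was 0.9937 to 0.9958, so a wider spread was not particular to these genes. Of the 5 libraries 3 read as female in nAAC at 4 weeks and 0 in sham. Replicate 1 of that nAAC group is the library with sham in its treatment label. The differences in spread were not tested.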
